A study of Bos taurus with 48 samples.

Results

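Mammary parenchyma and mammary fat pad of cows of the control group were compared by miRNA sequencing (miRNA-seq), the sequencing of a small RNA library. The comparison took all samples that the labels give as control at either site, which were 3 libraries labelled control parenchyma and 4 labelled control fat pad, 7 of the 48 samples of the series, with values for 524 bovine miRNAs. Control parenchyma had the sample numbers 1, 2 and 18, and control fat pad had 2, 18, 19 and 21. Both groups were Bos taurus tissue put into RNA preservative at slaughter, and the title of the series sets the control group apart from cows given milk replacer, either restricted or ad libitum. Neither genotype, breed, age, sex nor the control diet itself is given in the labels, and no agent other than the feed is named. The 12 parenchyma and 12 fat pad samples of the milk replacer groups are used below only to show where the control samples differ from them. Whether samples of the same number came from 1 cow is not stated, and p-values measure the spread between these samples, which may in part be technical.

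Parenchyma is the part of the mammary gland that holds the epithelial ducts. The fat pad is the fat and connective tissue into which the ducts grow. A miRNA is a short RNA that leads a silencing complex to messenger RNAs through pairing of its seed, the bases near its 5′ end, and many miRNAs are restricted to certain cell types. The miR-200 family (miR-200a, miR-200b, miR-200c, miR-141 and miR-429) and miR-205 are known for epithelial cells, miR-142, miR-150 and miR-223 for blood and immune cells, miR-144 and miR-451 for red blood cells, miR-126 for endothelium, and miR-378 is encoded within a gene that is active in fat.

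Of the miRNAs that the following results turn on, 3 are shown because each stands for a cell type whose miRNAs separated the samples or were missing from them. The sequences are the canonical ones listed with the quantitative PCR assays of these miRNAs, written with T for U. Capitals mark the seed (bases 2 to 8). miR-223 is the immune cell miRNA, miR-451 the red blood cell miRNA and miR-375 an epithelial miRNA.
miR-223: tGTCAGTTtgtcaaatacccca
miR-451: aAACCGTTaccattactgagtt
miR-375: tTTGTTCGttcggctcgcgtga
None of these seeds was shared with another of the 3.

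The authors scaled the read counts of each library by a size factor, and the results are called normalized values here. Within a library every value was a whole number of equal steps, with 6 steps as the smallest value above 0. Up to 5 reads can therefore lie behind a listing at 0. The number of reads estimated from the steps was 7364055 to 9002775 in control parenchyma and 2426128 to 5220093 in control fat pad. A value of 5 reads was thus 2.45 to 2.89 in control parenchyma but 4.79 to 11.7 in the fat pad, and this difference in depth touches all miRNAs of low level.

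The label parenchyma was checked first against 11 epithelial miRNAs in the table, and they did not bear it out in the control samples. The summed normalized value of these miRNAs was 460 in control parenchyma 1, 151 in control parenchyma 2 and 316 in control parenchyma 18. In the control fat pad it was 35 to 207, in the fat pad of the milk replacer groups 53.8 to 459, and in the parenchyma of the milk replacer groups 62502 to 112236. Of this list, miR-429 and miR-375 (sequence above) were listed at 0 in all 7 control samples, whereas their medians in milk replacer parenchyma were 1273 and 29.7. miR-375 was thus low in milk replacer parenchyma as well. miR-200c had normalized values of 35.6, 20.8 and 48.5 in control parenchyma 1, 2 and 18, against a median of 13201 in milk replacer parenchyma. miR-31 had 38.2, 58.4 and 25.5, which lay within the range of the control fat pad (9.58 to 77.7). Even so, the epithelial miRNAs were higher in control parenchyma than in the control fat pad. The mean of log2(value + 1) over the 11 was 3.90, 2.77 and 3.76 in control parenchyma 1, 2 and 18 and 0.76 to 1.86 in the fat pad, without overlap, and 7, 4 and 7 of the 11 lay above all 4 fat pad samples in the 3 samples, with none below. Over 255 to 265 miRNAs, the share above the fat pad by more than 2-fold was 6.67%, 16% and 25.3% in these samples. That share is a stricter count than the one of list members, which needs no 2-fold gap. For the 6 epithelial miRNAs that were high enough to be tested, the median log2 fold change was 3.14, beside 0.09 over all tested miRNAs, and only miR-200a passed the test described below. The median was 1.74 without control parenchyma 1, where 4 were tested and none passed. With 10 instead of 1 added to each value it was 1.38 and none passed. With a filter on a mean of 50 no member was tested. Of the 6, miR-200a and miR-205 were listed at 0 in the control fat pad. They were tested only through their parenchyma values, so the filter itself favoured a high median. A listing at 0 in the whole control fat pad was found for 7 of the 11, so these differences rest in part on the floor of those libraries. From what tissue the 3 libraries labelled control parenchyma were taken was not tested beyond the miRNAs given here, and every result below is one of libraries by their label. In whole tissue, fewer cells of a type and less RNA per cell cannot be told apart.

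The 3 control parenchyma samples did not resemble each other as the fat pad samples did. The SD of log2(value + 1) between samples had a median over 319 miRNAs of 1.04 in control parenchyma (n = 3) and 0.297 in control fat pad (n = 4), and it was larger in control parenchyma for 271 of the 319. In the milk replacer groups the median SD was 0.314 to 0.405 at either site. Pearson correlation of log2(value + 1) across 336 miRNAs, which are not independent replicates, is given as a description. Control parenchyma 1 correlated at 0.951 to 0.962 with the control fat pad samples, control parenchyma 2 at 0.902 to 0.92 and control parenchyma 18 at 0.858 to 0.88, while the fat pad samples correlated with each other at 0.963 to 0.981. With the parenchyma of the milk replacer groups the medians were lower, at 0.841, 0.83 and 0.796 for the 3 samples. Control parenchyma 1 and 2 correlated with each other at 0.928, and control parenchyma 18 correlated with them at 0.865 to 0.875. Each control parenchyma sample was therefore closer to the control fat pad than to milk replacer parenchyma, and control parenchyma 18 was about as close to the other 2 as to the fat pad.

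**Figure D1:**
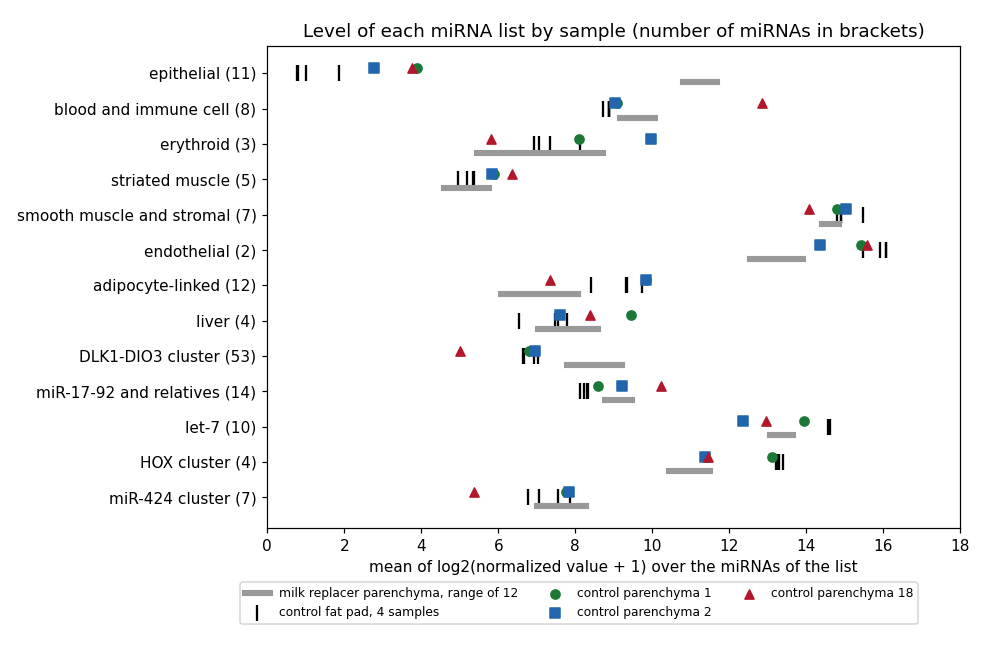
Mean of log2(normalized value + 1) over the miRNAs of each list, one row per list, for the 3 control parenchyma samples (coloured symbols), the 4 control fat pad samples (vertical ticks) and the range of the 12 milk replacer parenchyma samples (grey bars). The epithelial list lies at 2.77 to 3.90 in control parenchyma and at 10.8 or more in milk replacer parenchyma, and control parenchyma 18 stands apart in the blood and immune cell list.

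More miRNAs were detected in control parenchyma than in control fat pad. A normalized value above 0 was found for 378, 368 and 381 miRNAs in control parenchyma 1, 2 and 18, and for 279 to 330 miRNAs in the 4 fat pad samples. The mean was 375.7 ± 6.81 (SD, n = 3) against 302.8 ± 21.9 (SD, n = 4), a difference of 72.9 miRNAs without overlap of the groups (exact permutation test, two-sided, p = 0.0571). This is the smallest p that 3 against 4 samples allow. After each library was thinned to 2426128 reads the difference was 31.2 miRNAs (319.7 ± 6.51 against 288.5 ± 8.74), with the same exact p. So, the difference was smaller at equal reads, but the groups still did not overlap.

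Over all miRNAs, few differences between control parenchyma and control fat pad exceeded the spread between samples. The test was limma on log2(value + 1), and 319 miRNAs reached the required mean of 10 in the 7 samples. Of these, 5 miRNAs rose (1.57% of those tested) and 1 fell (0.313%) at an adjusted p under 0.05 (Benjamini-Hochberg). The p without adjustment was under 0.05 for 76 miRNAs (23.8%), 40 of them higher and 36 lower in control parenchyma. Values of the 2 groups did not overlap for 38 miRNAs with control parenchyma above (11.9%) and 38 below (11.9%). Where the fat pad was listed at 0, a placement above may rest on the smaller depth of those libraries. The median log2 fold change of all tested miRNAs was 0.09. It was 0.29 when each sample was rescaled to the same sum, where 251 miRNAs reached the required mean. Changes of that size are thus not told from a shift of the whole scale. The count was not stable when single libraries were left out. Without control parenchyma 1 it was 28 higher and 32 lower, and without control parenchyma 18 it was 7 higher and 1 lower. Without control parenchyma 2 or any 1 of the 4 fat pad samples it was 0 (58 to 87 miRNAs had an unadjusted p under 0.05 in limma). Leaving out a sample also gives the test fewer samples, so a count of 0 does not by itself trace the calls to that library.

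Among the 6 miRNAs past the threshold, miR-328 was the abundant one that rose. It had normalized values of 1754, 1589 and 1634 in control parenchyma 1, 2 and 18, and 410, 381, 504 and 423 in control fat pad 2, 18, 19 and 21. All 3 parenchyma samples were above all 4 fat pad samples, and the parenchyma samples were close to each other. Means were 1659 ± 85.3 (SD, n = 3) and 430 ± 52.7 (SD, n = 4). The log2 fold change was 1.95 ± 0.32 (SE; limma, adjusted p = 0.0269). In milk replacer parenchyma its median was 1665, and in milk replacer fat pad 515.

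The miRNA that fell was miR-369-3p, a member of the large imprinted DLK1-DIO3 cluster, whose miRNAs are transcribed from the maternal chromosome. Its normalized values were 840, 556 and 402 in control parenchyma 1, 2 and 18, and 2073, 2718, 2661 and 2488 in control fat pad 2, 18, 19 and 21. All parenchyma samples were below the lowest fat pad sample. The log2 fold change was −2.11 ± 0.36 (SE; limma, adjusted p = 0.0269). In the milk replacer samples the order was the other way round, with a median of 5583 in parenchyma and 2618 in fat pad. The other arm of its hairpin, miR-369-5p, did not move alike in the control samples. The log2 ratio of the 5p to the 3p arm was −0.33, −0.90 and −1.33 in control parenchyma 1, 2 and 18, against −2.19 to −1.5 in the fat pad.

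The remaining 4 miRNAs that rose were of low level and had no value above 0 in the control fat pad. A floor was therefore set at 5 reads per fat pad library, 7.8 on average, which gives lower bounds. These 4 reached the required mean of 10 only through control parenchyma. Listings at 0 show no spread in the fat pad, so their adjusted p does not measure the spread there. With a filter on a mean of 50, miR-328 was the only miRNA that rose. miR-1249 had 42.8, 29.5 and 37.2 in control parenchyma 1, 2 and 18 and was at least 4.68-fold higher (adjusted p = 0.0269, limma). miR-200a, of the epithelial miR-200 family, had 66.7, 29.5 and 17.6 and was at least 4.87-fold higher (adjusted p = 0.0379). miR-17-3p, the minor arm of a hairpin of the proliferation-linked miR-17-92 cluster, had 11.7, 68.8 and 59.8 and was at least 6.00-fold higher (adjusted p = 0.0379). miR-1388-3p had 10.2, 43.4 and 157 and was at least 8.99-fold higher (adjusted p = 0.0477). In 3 of these 4 the parenchyma values differed several-fold between samples, and the lowest lay near the floor of the fat pad. In milk replacer parenchyma miR-200a ranged from 24048 to 49508.

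**Figure D2:**
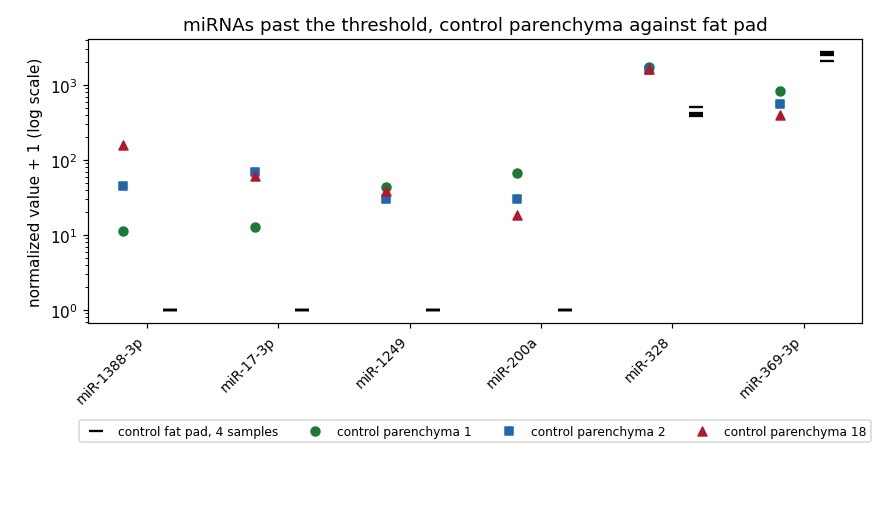
Normalized value + 1 on a log scale of the 6 miRNAs past the threshold, for each control parenchyma sample (coloured symbols) and each control fat pad sample (black dashes). The 4 miRNAs on the left have no fat pad value above 0, miR-328 is at 1589 to 1754 against 381 to 504, and miR-369-3p at 402 to 840 against 2073 to 2718.

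Just beyond the threshold came miR-331-3p, miR-423-3p, miR-1306 and let-7a, each with an adjusted p of 0.0843 (limma). Values of miR-423-3p were 14901, 13197 and 13888 in control parenchyma 1, 2 and 18, against 5469 to 7807 in the fat pad, and those of miR-331-3p were 685, 1369 and 752 against 266 to 308. miR-1306 had 271, 263 and 100.4 against 30.7 to 56.0. None of these groups overlapped, but the 4 were not called. The arms of miR-423 did not move alike. The log2 ratio of its 5p to its 3p arm was −1.41, −2.02 and −2.72 in control parenchyma 1, 2 and 18, against −1 to −0.706 in the fat pad.

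The most abundant miRNAs were the same 5 at both sites, namely miR-99a-5p, miR-143, miR-126-3p, miR-148a and miR-26a. miR-99a-5p made up 16.8%, 11.9% and 7.60% of all normalized values in control parenchyma 1, 2 and 18, and 12.3% to 15.4% in the fat pad samples. miR-143, a miRNA of smooth muscle and stroma, made up 8.60%, 15.0% and 14.8% against 7.55% to 9.62%. miR-148a made up 5.01%, 13.96% and 9.77% against 5.64% to 8.14%. In each of these the 3 parenchyma samples spanned a wider range than the fat pad samples and the groups overlapped.

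Because the parenchyma samples differed so much, each was set singly against the range of the 4 control fat pad samples. A miRNA was counted when it reached 50 in the sample or in the fat pad mean and lay more than 2-fold outside that range on log2(value + 1). Control parenchyma 1 had 17 miRNAs above (6.67% of 255) and 3 below (1.18%). Control parenchyma 2 had 42 above (16% of 262) and 50 below (19.1%). Control parenchyma 18 had 67 above (25.3% of 265) and 69 below (26%). Each fat pad sample against the other 3 gave 1 to 4 above and 0 to 11 below. A single sample has no test, and these counts describe the samples. Counts of list members above or below all 4 fat pad samples, given elsewhere in this text, need no 2-fold gap. Their share over all miRNAs was not counted, and a single sample can often lie outside a range of 4 by chance.

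**Figure D3:**
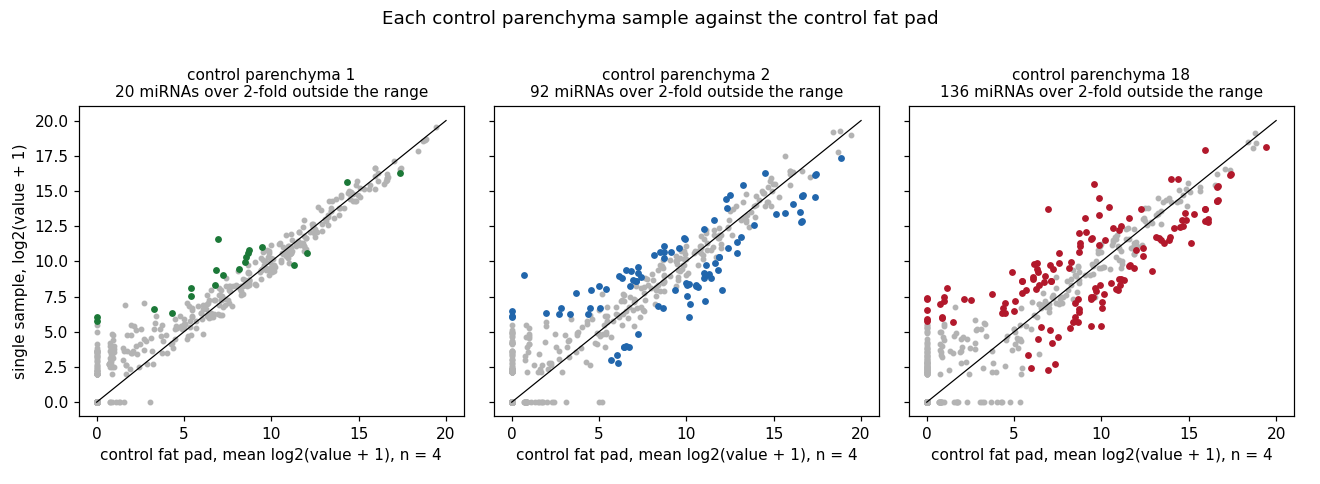
Each point is a miRNA, with the mean log2(normalized value + 1) of the 4 control fat pad samples on the horizontal axis and log2(value + 1) of a single control parenchyma sample on the vertical axis; coloured points lie more than 2-fold outside the fat pad range and the line marks equality. Scatter is narrowest for control parenchyma 1 (20 coloured miRNAs), wider for control parenchyma 2 (92) and widest for control parenchyma 18 (136).

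Control parenchyma 1 was nearest to the fat pad, and its largest departure among miRNAs above 0 in all 4 fat pad samples was miR-122, the miRNA of liver cells. It had a normalized value of 3058 in this sample, 91.4 in control parenchyma 2 and 3.92 in control parenchyma 18. In the control fat pad it was 13.7 to 371, and in the fat pad of the milk replacer groups 0 to 3798, so the value in control parenchyma 1 was within what single fat pad samples showed. Also above the fat pad range in this sample were miR-365-5p (188 against 30.7 to 51.3) and miR-1306. miR-205 reached 53.9, its highest value in the 7 samples, with 17.3 and 4.90 in control parenchyma 2 and 18 and a listing at 0 in the fat pad. By contrast, it had a median of 14439 in milk replacer parenchyma. Farthest below the fat pad range were miR-369-3p and miR-98, a member of the let-7 family, with 1558 against 3968 to 4575.

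Control parenchyma 2 stood apart in single members of miRNA clusters. miR-144, a red blood cell miRNA, had 512 in this sample, 5.6 in control parenchyma 1 and at most 5.75 in all other control samples. However, miR-451 (sequence above), whose gene is the nearest neighbour of the miR-144 gene in the RefSeq annotation of the assembly ARS-UCD2.0, had 1156 there, against 1226 in control parenchyma 1 and 1576 to 2496 in the fat pad. Thus, of this pair of neighbours 1 was far above the fat pad and the other was below it. Further miRNAs far above the fat pad were miR-136 (660 against 80.5 to 106), miR-503-5p (253 against 13.99 to 43.4), miR-665 (213 against 5.75 to 30.3), miR-345-5p (103.5 against 0 to 16.3), miR-376b (89.6 against 0) and miR-1277 (64.8 against 0). Of these, miR-136, miR-376b and miR-665 belong to the DLK1-DIO3 cluster.

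Both arms of a hairpin did not move alike in control parenchyma 2. miR-199a-5p, a stromal miRNA, had 180195 in this sample and 39250 to 96550 in the fat pad, while miR-199a-3p, the other arm of the same hairpin, had 73954 against 154793 to 233764 (values of the copy miR-199a-1). The log2 ratio of the 5p to the 3p arm was 1.28 in control parenchyma 2, −1.16 and −0.89 in control parenchyma 1 and 18, and −2 to −1.28 in the fat pad. Of 16 hairpins with both arms at a mean of at least 50 and above 0 in all 7 samples, the log2 ratio lay outside the fat pad range by over 1 in 8 for control parenchyma 2, in 1 for control parenchyma 1 and in 3 for control parenchyma 18. An arm ratio is taken within a library and does not depend on its size factor.

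Control parenchyma 18 was the sample with high miRNAs of blood and immune cells. All 8 of these miRNAs were above all 4 fat pad samples in it. Of 265 miRNAs, 25.3% were above by over 2-fold in this sample, which is a stricter count and not a like share. In each of control parenchyma 1 and 2, 4 of the 8 were above and 2 were below. Their summed normalized value was 106260 in control parenchyma 18, 9221 and 9213 in control parenchyma 1 and 2, and 6317 to 7388 in the fat pad. The parenchyma of the milk replacer groups had 10018 to 19314. miR-142-5p, which blood-forming cells make, had 45393 in control parenchyma 18, 843 and 2003 in control parenchyma 1 and 2, and 597 to 875 in the fat pad. Its other arm, miR-142-3p, had 13636 in control parenchyma 18, 77.4 and 412 in the other parenchyma samples, and 112 to 134 in the fat pad, 112-fold over the fat pad mean. miR-150, a lymphocyte miRNA, had 23130 against 783 to 1399 in the fat pad. miR-223 (sequence above), a miRNA of myeloid cells, had 599 against 23.5 to 32.6. miR-146a, which dampens inflammatory signalling, had 8497 against 430 to 712, and miR-155, a miRNA of activated lymphocytes, 5237 against 1450 to 1952. miR-342 was the member with the least difference, 5729 against 2008 to 2700. miR-146b had 4040 against 261 to 774.

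None of the 8 passed the test for control parenchyma against control fat pad. With the spread taken from all 31 mammary samples 6 were higher, with a replicate block over the 7 samples 2, and without control parenchyma 1 only 1. No member passed without control parenchyma 18. The median log2 fold change of the 8 was 1.44, beside 0.09 over all tested miRNAs, and it was 0.43 without control parenchyma 18. Thus the level of this list in the group rested on 1 library, and whether this library was of the labelled tissue was not tested.

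Other lists moved in control parenchyma 18 at the same time. Of 12 adipocyte-linked miRNAs, 8 were below all fat pad samples and 1 above. Of 265 miRNAs, 26% were below by over 2-fold, which is a stricter count and not a like share. miR-378, by the copy miR-378-2, had 8370 there, 80478 and 81687 in control parenchyma 1 and 2, and 33093 to 107212 in the fat pad. miR-193b, a miRNA of brown fat development, had 41.2 against 550 to 846. In milk replacer parenchyma the medians of these miRNAs were 3681 and 242. miR-451 was at 251, below the fat pad range of 1576 to 2496. miR-21-5p, a miRNA often raised in inflamed and proliferating tissue and named here after its values were seen, had 244335 against 55639 to 66150. Other miRNAs far above the fat pad were miR-2284f (170 against 0), miR-885 (92.6 against 0) and miR-2904 (54.4 against 0). The part of the immune cell miRNAs in these differences was not tested.

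The let-7 family, a large group of miRNAs that mark differentiated cells and restrain growth, was lower in all 3 control parenchyma samples, although no member passed the test. Of 10 let-7 miRNAs in the table, values of 9 did not overlap and were below the fat pad, where 11.9% of all tested miRNAs were so placed. The median log2 fold change was −1.77, and −1.47 when each sample was rescaled to the same sum. Adjusted p of the 9 ranged from 0.0843 for let-7a to 0.117 for let-7d (limma). Without control parenchyma 1, 8 of the 10 fell. With sample weights 5 fell, with a replicate block over the 7 samples 4, and with the spread taken from all 31 mammary samples 9, while 1 rose, and no member passed without control parenchyma 2 or 18 or without any 1 fat pad sample. The remaining member is let-7a-3p (copy let-7a-1-3p), the minor arm, with 703, 1101 and 3251 against 628 to 824.

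Members of the let-7 family differed in which sample was lowest. let-7f, by the copy let-7f-2, had 54856, 7299 and 42477 in control parenchyma 1, 2 and 18, and 89116 to 111509 in the fat pad. let-7g had 46834, 11862 and 44862 against 80983 to 99940. let-7i had 78210, 24600 and 91287 against 162763 to 182736. In these, as in miR-98 with 1558, 245 and 2159 against 3968 to 4575, control parenchyma 2 was the lowest sample. The order was different for let-7b, which had 53306, 17568 and 7187 against 64898 to 76844. let-7c had 24311, 10663 and 2552 against 32423 to 39776, and let-7e had 6394, 1554 and 621 against 7188 to 8331. Here control parenchyma 18 was the lowest sample, at 0.102, 0.0723 and 0.08 times the fat pad mean for let-7b, let-7c and let-7e. In the milk replacer samples let-7i also had a lower median in parenchyma (42768) than in fat pad (138066).

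**Figure D4:**
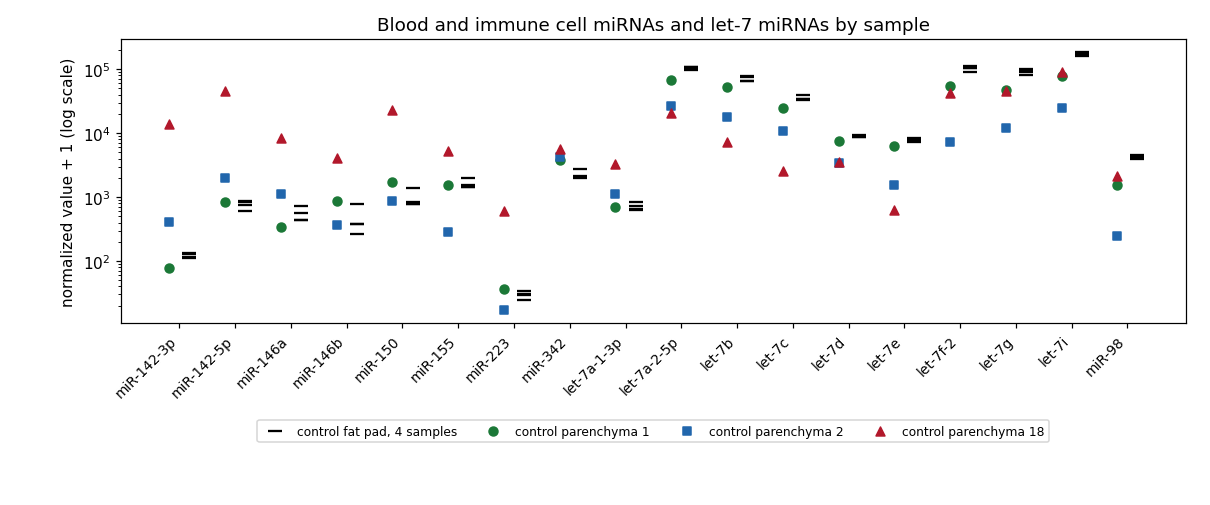
Normalized value + 1 on a log scale of the 8 blood and immune cell miRNAs (left) and the 10 let-7 miRNAs (right), for each control parenchyma sample (coloured symbols) and each control fat pad sample (black dashes). Control parenchyma 18 is above all fat pad samples in all 8 immune miRNAs, and 9 of the 10 let-7 miRNAs are lower in all 3 parenchyma samples.

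Of the DLK1-DIO3 cluster, 53 miRNAs were in the table and 44 were tested, of which 1 (miR-369-3p) fell and none rose. Values of 10 did not overlap and were lower in control parenchyma, and of 1 (miR-376b) higher, where 11.9% of all tested miRNAs were so placed in each direction. miR-376b was listed at 0 in the fat pad, where the floor of 5 reads was 7.8 on average. In control parenchyma 1 and 18 it was at 0.392 and 1.01 times that floor, so this order rests in part on depth. The median log2 fold change of the 44 was −0.80, and −0.11 without control parenchyma 18. In control parenchyma 18, 40 of the 53 were below all fat pad samples. In control parenchyma 2, 20 were below and 18 above, and in control parenchyma 1, 18 were below and 9 above. Over all miRNAs, 26% were below by over 2-fold in control parenchyma 18, 19.1% in control parenchyma 2 and 1.18% in control parenchyma 1. The share without that gap was not counted, so these counts are not read as particular to the cluster. The summed normalized value was 78609, 112458 and 28618 in control parenchyma 1, 2 and 18, and 80110 to 116072 in the fat pad. miR-127, which is antisense to the imprinted RTL1 gene, had 19628, 18959 and 5750 against 19938 to 31300, and miR-379 had 8639, 5538 and 2561 against 10640 to 13854. miR-411a had 19570, 53184 and 10911 against 23158 to 35555, so its groups overlapped. miR-432 reached its lowest value in control parenchyma 18, at 40.7 against 755 to 1117.

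Among 14 miRNAs of the miR-17-92 cluster and its relatives, which are linked to proliferation, miR-17-3p rose and none fell. The median log2 fold change was 0.98, and 0.46 without control parenchyma 18, in which all 14 were above the fat pad. In that sample 25.3% of 265 miRNAs were above by over 2-fold, which is a stricter count and not a like share. miR-19a had 70.7, 790 and 693 in control parenchyma 1, 2 and 18 against 126 to 172, whereas miR-17-5p of the same cluster had 1572, 2145 and 3352 against 1688 to 1777. miR-92a had 22546, 11455 and 20605 against 10160 to 15618 (copy miR-92a-1), and miR-25 had 14262, 6139 and 22852 against 13440 to 16170. miR-93 had 2385, 1804 and 4994 against 2423 to 2913. Control parenchyma 2 was thus above the fat pad in miR-19a but below it in miR-25 and miR-93.

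Of 4 miRNAs of the HOX gene clusters, which are located between the genes of body patterning, none passed the test, and the median log2 fold change was −1.21. miR-196a, by the copy miR-196a-2, had 1468, 147 and 322 against 1823 to 2318, and miR-196b had 1015, 324 and 348 against 1460 to 1541. Both lay below the fat pad in all 3 samples, where 11.9% of all tested miRNAs were so placed. The groups overlapped for miR-10a (28579, 15498 and 5519 against 19128 to 27012) and miR-10b (146029, 66166 and 95269 against 119900 to 177670). In control parenchyma 2 and 18 all 4 were below the fat pad range, and in control parenchyma 1 only both miR-196 members were. Over all miRNAs, 19.1% and 26% were below by over 2-fold in control parenchyma 2 and 18, which is a stricter count and not a like share.

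The endothelial miR-126-3p had 422222, 170138 and 354698 in control parenchyma 1, 2 and 18, against 352186 to 594379 in the fat pad, and its other arm miR-126-5p had 4564, 2610 and 6694 against 5769 to 9592. Neither arm passed the test (median log2 fold change −0.76), and both were below the fat pad in control parenchyma 2. Of 7 miRNAs of smooth muscle and stroma none passed. Values of 3 did not overlap and were below the fat pad, namely miR-199a-3p, miR-199b and miR-199c, beside 11.9% of all tested miRNAs. The median of this list was −0.27 and turned to 0.04 when each sample was rescaled to the same sum.

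None of the 3 erythroid and 3 tested striated muscle miRNAs passed the test. miR-486, a red blood cell and muscle miRNA, had 2495, 1664 and 692 against 1117 to 1912. miR-1, the main miRNA of striated muscle, had 2224, 581 and 2021 against 1523 to 2570, miR-133a had 304, 560 and 383 against 154 to 438, and miR-499 had 121, 157 and 123.5 against 110 to 175. miR-133b was listed at 0 in control parenchyma 1 and had 11.0 and 38.7 in control parenchyma 2 and 18, and miR-206 was above 0 only in control parenchyma 1, at 8.14, among the 7 samples. Of the 4 miRNAs linked to liver none passed, and miR-192 had 4254, 7819 and 8801 against 2399 to 3621 without overlap. miR-194 (copy miR-194-2) had 1665, 1960 and 3006 against 1572 to 2217. The 3 neuronal miRNAs in the table were too low to be tested. miR-9-3p had 11.7 and 17.3 in control parenchyma 1 and 2, and miR-9-5p and miR-219-3p were listed at 0 in all 7 samples. Of 6 tested miRNAs of the miR-424 cluster none passed. miR-450a (copy miR-450a-2) had 2194, 1252 and 1458 against 2672 to 4527, and miR-450b had 1524, 517 and 731 against 1206 to 3008. miR-424-5p had 435, 1333 and 178 against 522 to 786, while its other arm miR-424-3p had 608, 344 and 49.5 against 366 to 463.

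Among the 12 adipocyte-linked miRNAs none passed the test, and the median log2 fold change was −0.40. It was 0.38 without control parenchyma 18, so the direction of this list in the group rested on that library. miR-103, by the copy miR-103-2, had 9155, 8448 and 10843 against 8973 to 10066, and miR-107 had 2587, 3660 and 3068 against 2949 to 3124. These regulators of insulin sensitivity were at 0.854 to 1.21 times the fat pad mean in all 3 samples.

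Finally, it was tested whether the difference between the sites in control samples differed from that in the milk replacer samples. An interaction term was fitted with limma over all 31 mammary samples and 336 miRNAs, and it shares its control samples with the comparison above. The fit took a single spread for each miRNA from all 31 samples. The median SD was 1.04 in control parenchyma but 0.314 to 0.405 in the milk replacer groups. An adjusted p can therefore be too small where a term rests on control parenchyma. The control difference was above the milk replacer difference for 44 miRNAs (13.1%) and below it for 69 (20.5%). When each sample was rescaled to the same sum, 25 were above and 78 below, of 279 miRNAs that then reached the required mean. The 5 largest terms below were those of miR-429 (−10.35, adjusted p = 1.31e-20), miR-141 (−7.83, adjusted p = 2.89e-12), miR-183 (−7.45, adjusted p = 6.22e-05), miR-205 (−7.07, adjusted p = 4.94e-05) and miR-96 (−6.74, adjusted p = 1.95e-08), all on the log2 scale. Since miR-429 was listed at 0 in all control samples, its adjusted p does not measure a spread there. All 11 epithelial miRNAs were among those below. miR-141 was listed at 0 in control parenchyma 1 and had 3.47 and 9.80 in control parenchyma 2 and 18, whereas milk replacer parenchyma ranged from 456 to 1533. miR-183, miR-96 and miR-182 form a cluster that is active in epithelial and sensory cells. miR-183 had 130, 7.52 and 55.4 in control parenchyma 1, 2 and 18, and 0 to 98.7 in the control fat pad, so these groups overlapped, while milk replacer parenchyma had 1166 to 2119. miR-182 had 117, 4.05 and 105 against 0 to 84.3, and miR-96 had 6.62, 0 and 43.6 against 0. miR-200b had 11.7, 9.83 and 5.88 with the fat pad at 0.

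Outside the epithelial list, 38 of 49 miRNAs of the DLK1-DIO3 cluster were below in the interaction and none above. Over all 336 miRNAs, 20.5% were below and 13.1% above, which are the shares to set beside each list count here. The median parenchyma value of miR-127 was 77133 in the milk replacer groups, where the 3 control samples had 5750 to 19628. On the other side stood 7 of 12 adipocyte-linked miRNAs, both arms of miR-126 and 2 of 4 miRNAs of the HOX clusters, none of which was below. For miR-126-3p the interaction was 1.58 (adjusted p = 6.07e-05), with 170138 to 422222 in control parenchyma and 51886 to 104428 in milk replacer parenchyma. miR-10b had 66166 to 146029 in control parenchyma and 17472 to 34611 in milk replacer parenchyma (interaction 1.68, adjusted p = 3.84e-05). Of the 8 miRNAs of the immune list, 2 were above and 1 below, the latter being miR-146b (−2.35, adjusted p = 0.00408). These counts are not read as particular to the immune list. No let-7 miRNA passed in either direction. The 5 largest terms above were those of miR-383 (4.51), miR-378d (4.25), miR-2285k-1 (3.87), miR-6715 (3.81) and miR-2285k (3.72), whose adjusted p ranged up to 0.00841. All but miR-378d were low: miR-383 had 15.3, 5.78 and 6.37 in control parenchyma, 0 to 22.8 in the control fat pad, and a median of 33.4 in milk replacer fat pad. miR-2285k and its copy miR-2285k-1 share reads and were highest in control parenchyma 18, at 145.5 and 172.5.

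**Figure D5:**
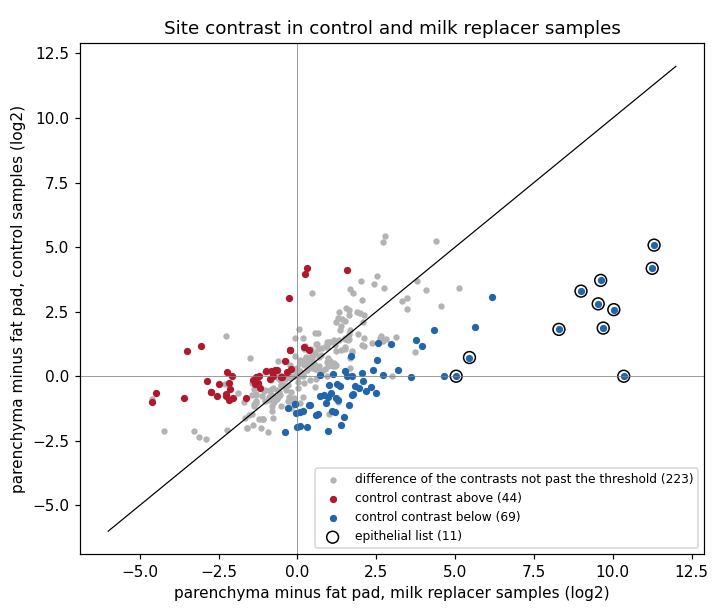
Each point is 1 of 336 miRNAs, with the difference of mean log2(normalized value + 1), parenchyma minus fat pad, in the milk replacer samples on the horizontal axis and in the control samples on the vertical axis. The line marks equality, colours mark the 44 and 69 miRNAs whose 2 differences differed in the interaction test, and open circles mark the 11 epithelial miRNAs, all below the line.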

How the data were processed

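For library preparation the authors ligated adaptors to small RNA, then reverse transcribed and amplified it. In the submitters' processing notes the authors list DESeq2, Trim Galore, FastQC and bcl2fastq, with no roles; which program assigned the reads, and to which genome build, is not given in the sources used here. Deposited values are normalized read counts, which the authors obtained with a single size factor for each library. Columns of means, fold changes and p-values hold the authors' own comparison and were not used. Because every line of the deposited table is quoted again as a whole, its columns were not open to an automatic check of units, and the unit rests on the steps of the values (tolerance 0.01). No test for counts was used.

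The comparisons were made in R 4.3.3 with the limma package (3.58.1) on log2(value + 1), a variance trend, a mean of at least 10 and Benjamini-Hochberg adjustment (threshold 0.05). A fold change on this scale understates that of low miRNAs above 0 in all samples. For a miRNA listed at 0 throughout a group it can overstate it, since up to 5 reads are hidden. miR-1249 had a log2 fold change of 5.21, while its lower bound was 4.68-fold. With a pseudocount of 10 its log2 fold change was 2.21. Summaries and exact permutation tests used Python 3.11.15. The fit was run on simulated data in which all samples had the spread of the control fat pad. The real spread was larger in control parenchyma (median SD 1.04 against 0.297), so the simulation cannot show how the fit performs here. The members of the groups, the miRNA lists and the tests were chosen with earlier results of these data known. Of 19 groups of gene copies (42 names) that share reads, lists kept the copy with the highest mean. The 9 pairs of samples within the groups differed by more than counting error (chi-square per degree of freedom at least 65.3).

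Named miRNAs are those past the threshold, the 8 farthest above and the 8 farthest below the fat pad in each control parenchyma sample, the 5 most abundant of each group, list members (the 3 most abundant, and all epithelial, erythroid, immune and striated muscle ones) and the 5 largest interactions in each direction; others were chosen after their values were seen, and not all are described. Alternatives covered pseudocounts, filters, scalings, the variance model, gene copies, a replicate block and leaving out each sample. Thinning of libraries in the limma comparison was added after the data were seen. The liver samples were not analysed here.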

Additional observations from a re-analysis of the deposited data

Results flagged for a closer look

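Among the 4 control fat pad samples, 1 sample stood apart from the other 3 in 11 of 77 named miRNAs, by a gap to the nearest sample, as a part of the whole range, over Dixon's critical value. Chance gives about 1 in 20 such groups. Control fat pad 2 was the sample apart in 5 of them, namely miR-10b (gap 0.874 of the range), miR-148a (0.905), miR-196a-1 (0.92), miR-199a-1-3p (0.968) and miR-199a-1-5p (0.93). In miR-196a-1 it was the lowest, and in the other 4 the highest. Control fat pad 19 was apart in miR-432 (0.846), in which it was the lowest, and in miR-144, miR-182, miR-2285k and miR-2285k-1 (1 each), in which it alone was above 0. A gap of 1 follows from the listing of the other 3 at 0 and is no measure of how far the sample stood apart. Control fat pad 19 had the most reads of the 4, and its value of 5.75 for miR-144 is that of 6 reads, while a listing at 0 can hide up to 11.7 in control fat pad 2 and 9.03 in control fat pad 21. Its values of miR-2285k and miR-2285k-1, copies that share reads and are counted here as 2, were 15.3 each, and that of miR-182 was 84.3. Control fat pad 21 was the highest in miR-150 (0.906).

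The difference between parenchyma and fat pad differed between control and milk replacer samples, by the interaction term of limma, for the following named miRNAs. The term was −10.3 for miR-429, −7.83 for miR-141, −7.45 for miR-183, −7.07 for miR-205 and −6.74 for miR-96, on the log2 scale. It was 4.51 for miR-383, 4.25 for miR-378d, 3.87 for miR-2285k-1, 3.81 for miR-6715 and 3.72 for miR-2285k.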

How the results depend on the processing

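The number of miRNAs past the threshold in control parenchyma against control fat pad, 5 higher and 1 lower, moved with most settings. It was 2 higher with a pseudocount of 10, 12 higher without a filter, 1 higher with a filter on a mean of 50, 3 higher after rescaling of samples to the same sum, and 11 lower with sample weights. After that rescaling only 251 miRNAs instead of 319 reached the required mean. Of the 6 called before, 2 were then tested, and both passed. With the spread taken from all 31 mammary samples the count was 79 higher and 51 lower. With a replicate block it was 2 higher and 8 lower over the 7 samples, where none of the 6 miRNAs called before passed, and 83 higher and 70 lower over the 31 samples, where all 6 passed. Same-numbered samples deviated together (correlation over 0.1) in 7 of 14 pairs, with a highest correlation of 0.475. For control samples of number 2 and 18 it was 0.0757 and 0.00267. Samples of unlike number were not compared, so this cannot settle whether the numbers pair the samples. The main test left them unpaired. Leaving out 1 sample gave 0 to 28 higher and 0 to 32 lower; the count was 0 without control parenchyma 2 or without control fat pad 2, 18, 19 or 21, with 58 to 87 at an unadjusted p under 0.05. All 6 miRNAs kept their direction under every alternative in which they were tested, and miR-328 had log2 fold changes of 1.90 to 2.25 (adjusted p 0.000529 to 0.231). At equal reads all 6 passed.

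For the interaction, rescaling to the same sum gave 25 miRNAs above instead of 44, with 279 instead of 336 tested. The other alternatives gave 34 to 51 above and 62 to 79 below. All these fits pooled the spread of control and milk replacer samples. The replicate block gave 45 above and 76 below. miR-2285k did not pass without control parenchyma 18 (2.60, adjusted p = 0.0539), and the 9 other named miRNAs passed under all alternatives in which they were tested. The difference in detected miRNAs was 65.0 to 82.0 when 1 sample was left out. The cause of these changes was not tested. Depth limits miRNAs of low level, since up to 5 reads are listed at 0 and the fat pad libraries had fewer reads.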
